A study of Mus musculus with 8 samples.

Results

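Mitochondrial ribosomal proteins were taken as the rows of the deposited gene table whose symbol begins with Mrpl or Mrps and a digit, leaving out symbols of pseudogenes. This gave 76 genes of the 37447 in the table, each with 1 row, and left out 4 pseudogene rows. By the place of each protein in the mammalian mitochondrial ribosome, 49 belong to the large subunit, 26 to the small subunit and 1, Mrps36, to neither, since it is now assigned to the alpha-ketoglutarate dehydrogenase complex. Of the large-subunit proteins 30 have a bacterial homolog and 19 occur in mitochondria only, and of the small-subunit proteins 16 and 10. Mrps30 and Mrps18a are counted with the large subunit, where their proteins sit despite their names. Mrps18a and Mrps18b, paralogs of the S18 homolog Mrps18c, are counted with the proteins found in mitochondria only.

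The mitochondrial ribosome translates the few messages of the mitochondrial genome, all of which encode subunits of the respiratory chain and ATP synthase. Its RNAs are made in the organelle, but each of its proteins is encoded in the nucleus, translated in the cytosol and imported. In microglia, the macrophages that reside in the central nervous system, as in other cells, the respiratory chain depends on this machinery.

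RNA was sequenced from microglia flow sorted from the optic nerve of C57BL/6 mice aged 3 months. There were 4 libraries from FFC mice (Nf1 flox/flox; GFAP-Cre), in which Cre driven by the promoter of the astrocyte gene GFAP removes the tumour suppressor Nf1, and 4 from FF mice (Nf1 flox/flox), which carry the same floxed alleles without Cre. Each genotype had 2 libraries from females (replicates 1 and 4) and 2 from males (replicates 2 and 3). The deletion was aimed at astrocytes, not at the sorted cells, and the question was how microglia differ beside astrocytes that lack Nf1. The labels call the libraries biological replicates and do not say whether animals were pooled, so p-values measure the spread between these libraries.

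Values are FPKM, which are scaled by transcript length and library size, so levels can be compared between genes. No read counts come with them, and the depth behind each value is unknown. The summed FPKM lay between 525184 and 651231 in the FFC libraries and between 367760 and 700291 in the FF libraries. All 12 microglia marker genes were above 0 in every library, and their summed level was 3696 to 6688 FPKM in FFC and 1745 to 5318 FPKM in FF. FF 2 and FF 4 stood apart. Their summed FPKM was the lowest (391924 and 367760), and the marker sums were not scaled to it. They had the lowest microglia marker sums (1745 and 3130 FPKM), but relative to summed FPKM FF 4 lay above FFC 1 (3696 of 525184 FPKM). FF 2 and FF 4 also had the highest percentage of their summed FPKM in chemosensory receptor genes (Olfr and Vmn, 4.23% and 3.496%). That percentage was 0.708% to 1.57% in FFC and 1.62% and 1.47% in FF 1 and FF 3. The part of these differences in the results below was not tested, and the main counts and medians, and the differences of the 26 genes described below, are given with and without FF 2 and FF 4. In such samples, fewer cells of a type and less RNA per cell cannot be told apart.

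The 76 genes were expressed at low to moderate levels, with mean FPKM over the 8 libraries between 1.05 and 113 and a median of 11.4. All 76 had a mean of at least 1 FPKM, the limit for testing. Within a library, the median of the 76 was 6.32, 7.12, 8.56 and 14.1 FPKM in FFC 1 to FFC 4, against 9.51, 2.27, 8.56 and 3.14 FPKM in FF 1 to FF 4. FFC 4 had the highest median and FF 2 the lowest, and the genotypes overlapped. In FF 2 the median member stood at percentile 43.7 of all tested genes and in FF 4 at percentile 52.5. In the other libraries it stood between percentile 59.5 and 67.9. As a share of summed FPKM, the 76 made up 0.205% in FF 2 and 0.281% in FF 4. That share was 0.184% to 0.348% in the other libraries.

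**Figure D1:**
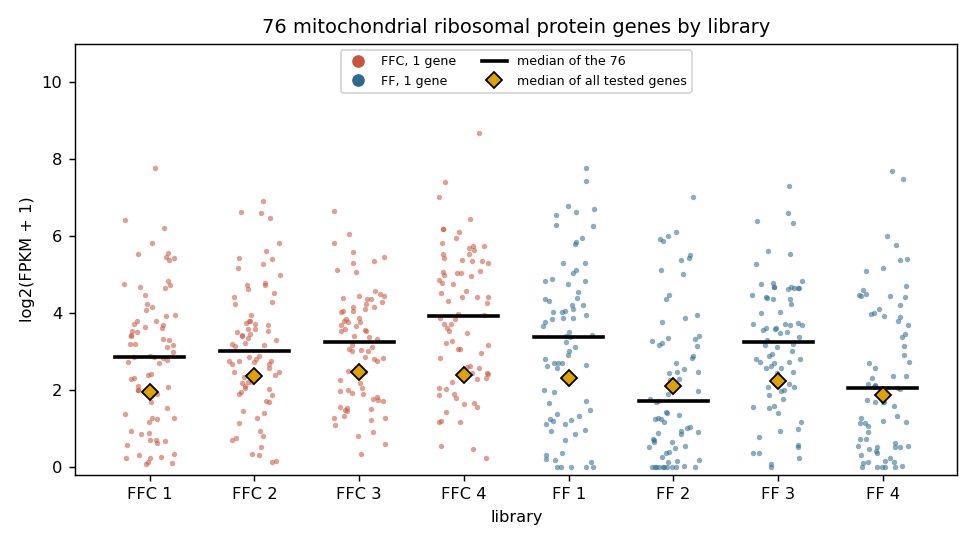
Level of each of the 76 mitochondrial ribosomal protein genes (points, log2(FPKM + 1), vertical axis) in each of the 8 libraries (horizontal axis), with the median of the 76 (bar) and of all 17753 tested genes (diamond). The bar lies below the diamond in FF 2 and above it in the other 7 libraries.

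Low values were most frequent in FF 2 and FF 4. Of 304 values per genotype, 32 (10.5%) were under 1 FPKM in FFC and 75 (24.7%) in FF, whereas over all tested genes the shares were 32.4% in FFC and 33.9% in FF. FFC 1 to FFC 4 had 16, 9, 4 and 3 members under 1 FPKM, and FF 1 to FF 4 had 14, 28, 9 and 24. FF 1 and FF 3 thus lay within the range of the FFC libraries. None of the 76 was listed at 0 in an FFC library, while 3, 9, 1 and 5 were in FF 1 to FF 4. Entries of 0 in this table need not mean absence, since 32 of the 37 mitochondrially encoded genes are listed at 0 in all 8 libraries. For that reason the level of the messages that this ribosome translates is not described here.

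The spread over libraries was wide. The level of a member ranged by a median of 3.82 on the log2(FPKM + 1) scale between its lowest and highest library, and by more than 4 (a factor of 16) for 33 of the 76. Mrpl30, a homolog of bacterial L30, had the narrowest range, with 11.96, 20.4, 19.6 and 20.5 FPKM in FFC 1 to FFC 4 and 15.3, 7.80, 9.35 and 21.5 FPKM in FF 1 to FF 4. Mrps21 had the widest, as given below. The lowest value of a member lay in an FF library for 66 genes, of which 47 had it in FF 2 or FF 4, and in an FFC library for 10. The highest value lay in an FFC library for 35 genes and in an FF library for 41. These counts of lowest and highest values have no share over all tested genes beside them, since it was not computed. The residual SD within genotypes had a median of 1.34 over the 76 and 1.23 over all tested genes, in log2 units.

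**Figure D2:**
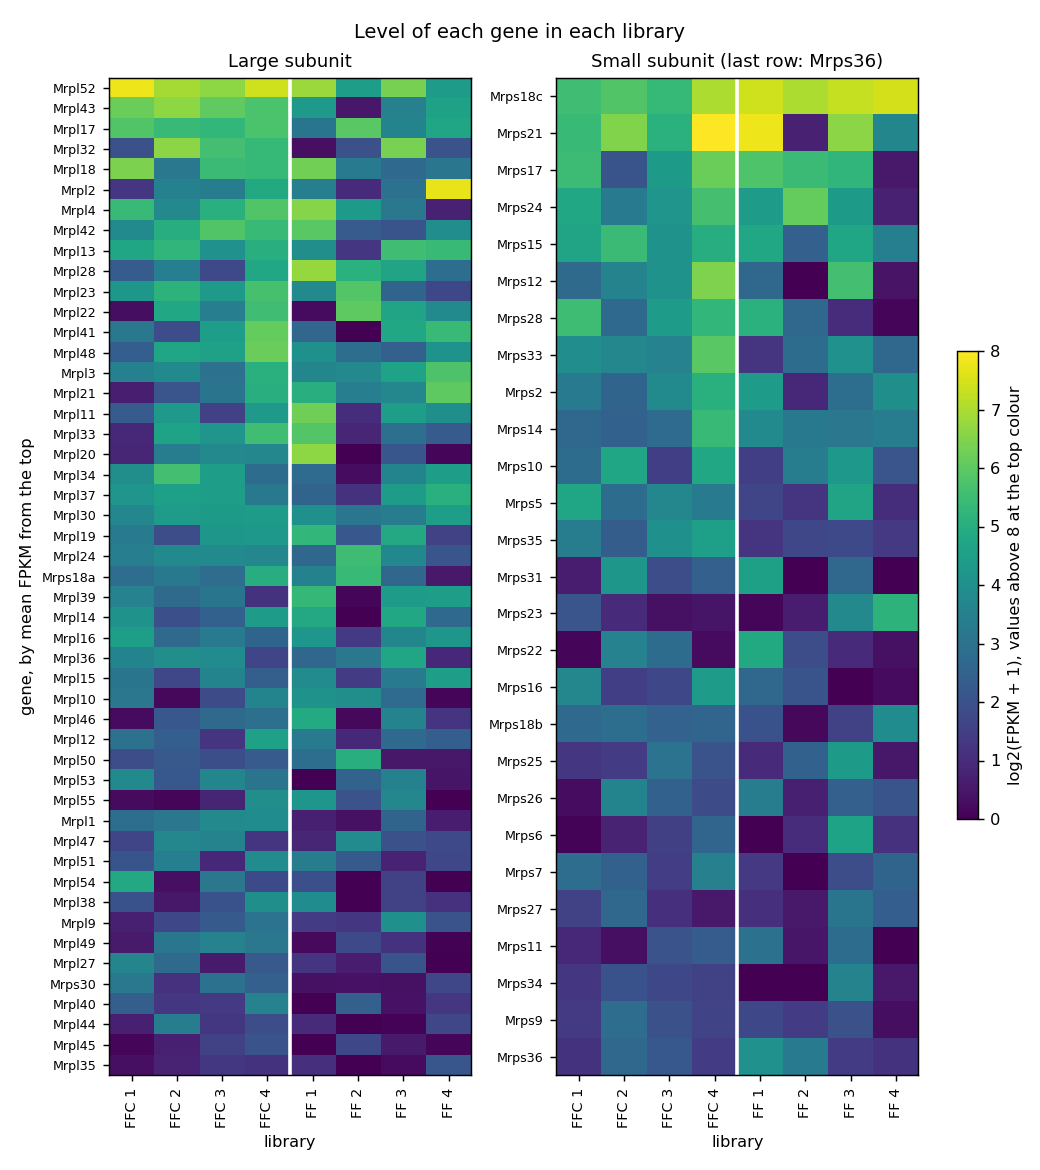
Level of each gene (rows, ordered by mean FPKM within a subunit) in each library (columns, FFC left and FF right of the white line), as log2(FPKM + 1) by colour, with values above 8 at the top colour. The darkest cells, at or near 0, are most frequent in FF 2 and FF 4, with 28 and 24 members under 1 FPKM, and least frequent in FFC 4, with 3.

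Between the genotypes, more members had a higher mean in FFC than in FF, and no single gene passed the test. Of the 76, 51 (67.1%) had a higher mean log2(FPKM + 1) in FFC and 25 a lower one, and over all 17753 tested genes 56.7% were higher. The median difference of the 76 was 0.56 and that of all tested genes 0.19. Limma called 0 members at an adjusted p under 0.05 (background 0%; smallest adjusted p of a member 0.651). At an unadjusted p under 0.05 there were 4 members higher in FFC (5.26%, background 4.52%) and 1 lower (1.32%, background 1.94%). All 4 FFC values lay above all 4 FF values for 3 members (3.95%, background 3.05%), and below them for 1 (1.32%, background 1.29%). These shares lie near the background. Without FF 2 and FF 4, where fewer libraries have to be separated, 8 members lay all above (10.5%, all tested genes 7.21%) and 7 all below (9.21%, all tested genes 6.40%). The differences ran from -1.81 to 2.93 with standard errors of 0.55 to 1.34.

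Without FF 2 and FF 4 the median of the 76 was 0.10, with 44 of 76 higher, against 0.07 for all tested genes and 52.6% of them higher. Without FFC 4 alone the median of the 76 was 0.23, with 46 of 76 higher (all tested genes 0.12). It was 0.26 with a pseudocount of 5 (all tested genes 0.09) and 0.87 with a pseudocount of 0.1 (all tested genes 0.29). After upper-quartile, equal-sum or quantile scaling it was 0.42, 0.44 and 0.34. With these scalings 49, 49 and 48 members were higher, and the median of all tested genes was 0.03, 0.04 and 0.03.

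**Figure D3:**
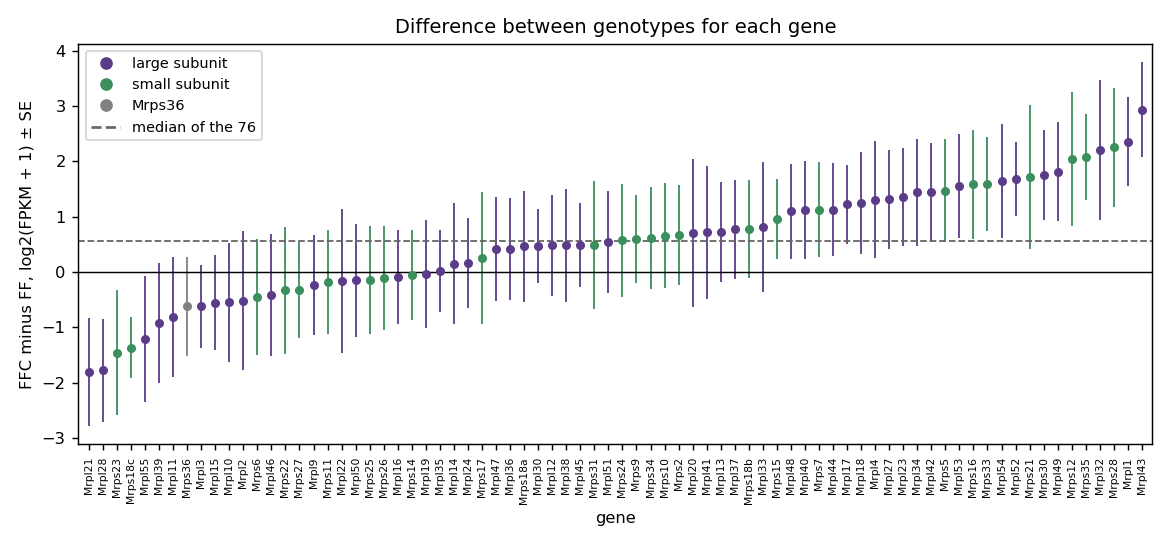
FFC minus FF difference of mean log2(FPKM + 1) for each of the 76 genes (points, bars ± SE, 4 libraries per genotype), ordered from lowest to highest, with the median of the 76 as a dashed line. The differences run from -1.81 (Mrpl21) to 2.93 (Mrpl43), and 51 lie above 0.

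By subunit, of the 49 large-subunit genes 34 were higher in FFC (median difference 0.49), and of the 26 small-subunit genes 17 were (median 0.61). Of the 46 genes with a bacterial homolog 30 were higher (median 0.47), and of the 29 subunit genes found in mitochondria only 21 were (median 0.72). Without FF 2 and FF 4 the 4 medians, in the same order, were 0.41, -0.04, 0.04 and 0.59. Mrps36 had 1.26, 5.41, 3.56 and 1.70 FPKM in FFC 1 to FFC 4 and 15.6, 9.06, 1.67 and 1.24 FPKM in FF 1 to FF 4, with overlap.

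The genes without overlap between the genotypes were Mrpl43, Mrpl1 and Mrps35, all higher in FFC, and Mrps18c, lower in FFC. Mrpl43 (ENSMUSG00000025208, chromosome 19, 45079504 to 45080932 in mm9) encodes a large-subunit protein found in mitochondria only. It had 73.2, 97.7, 65.2 and 52.5 FPKM in FFC 1 to FFC 4, against 18.8, 0.437, 10.1 and 23.1 FPKM in FF 1 to FF 4. Every FFC library was at least at 52.5 FPKM and no FF library above 23.1. Its log2 difference was 2.93 ± 0.86 (SE), the largest of the 76, and did not pass (limma adjusted p = 0.651). It was 2.26 without FF 2 and FF 4. Mrpl43 shares 370 bases of its span with Peo1, which encodes the mitochondrial DNA helicase Twinkle, and the protocol in the labels names no strand marking, so reads in that overlap cannot be assigned with certainty. Peo1 itself had 1.06, 0.632, 5.00 and 0.932 FPKM in FFC 1 to FFC 4, against 2.40, 10.1, 18.9 and 0.945 FPKM in FF 1 to FF 4.

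Mrpl1 (ENSMUSG00000029486, chromosome 5, 96638512 to 96695746) encodes the protein of the L1 stalk, which moves with the tRNA that leaves the ribosome. It had 6.35, 8.02, 12.7 and 13.7 FPKM in FFC 1 to FFC 4, against 0.634, 0.294, 4.93 and 0.538 FPKM in FF 1 to FF 4. Of the FF libraries, FF 3 came nearest to FFC and the other 3 were under 1 FPKM. The log2 difference was 2.36 ± 0.81 (SE; limma adjusted p = 0.712). It was 1.79 without FF 2 and FF 4.

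Mrps35 (ENSMUSG00000040112, chromosome 6, 146991286 to 147019425), a small-subunit protein found in mitochondria only, had 9.57, 4.10, 15.3 and 21.9 FPKM in FFC 1 to FFC 4, against 1.32, 2.24, 2.39 and 1.51 FPKM in FF 1 to FF 4. The FF values lay close together, at 1.87 ± 0.53 FPKM, and the FFC values at 12.7 ± 7.65 FPKM (SD, n = 4 each). Its log2 difference was 2.07 ± 0.78 (SE; limma adjusted p = 0.712) and 2.08 without FF 2 and FF 4.

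Mrps18c (ENSMUSG00000016833, chromosome 5, 101227646 to 101233490) encodes the homolog of bacterial S18 in the small subunit and had the highest mean of the 76 (113 FPKM). It had 46.2, 56.1, 40.1 and 129 FPKM in FFC 1 to FFC 4, against 171, 129, 158 and 178 FPKM in FF 1 to FF 4. The groups touched, with 128.9 FPKM in FFC 4 and 129.3 FPKM in FF 2. The log2 difference was -1.37 ± 0.55 (SE; limma adjusted p = 0.727), and -1.42 without FF 2 and FF 4. Mrps18c was the 1 member at an unadjusted p under 0.05 with a lower mean in FFC (67.8 ± 41.3 FPKM in FFC and 159 ± 21.6 FPKM in FF, SD, n = 4 each).

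Both paralogs of Mrps18c had a higher mean log2 value in FFC, with overlap. Mrps18b, a small-subunit protein, had 5.63, 6.36, 4.69 and 5.16 FPKM in FFC 1 to FFC 4, against 3.01, 0.123, 1.93 and 13.8 FPKM in FF 1 to FF 4. The FFC values lay within the range of the FF values. Mrps18a, the paralog in the large subunit, had 6.27, 8.34, 6.25 and 30.5 FPKM in FFC 1 to FFC 4, against 10.5, 41.0, 5.17 and 0.446 FPKM in FF 1 to FF 4, where FF held both the highest and the lowest value. Their log2 differences were 0.78 ± 0.89 and 0.46 ± 1.01 (SE; limma adjusted p = 0.802 and 0.907). Both stayed positive without FF 2 and FF 4, at 0.91 and 0.41. That of Mrps18a turned to -0.04 without FFC 4 and -0.36 without FF 4.

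Mrpl52 and Mrps30 followed by the size of p among genes with a higher mean in FFC. Mrpl52 (ENSMUSG00000010406, chromosome 14, 55045746 to 55048587), a large-subunit protein found in mitochondria only, had 219, 121, 99.8 and 169 FPKM in FFC 1 to FFC 4, against 110, 21.1, 81.0 and 20.3 FPKM in FF 1 to FF 4. Only FF 1 reached the lower end of FFC, and FF 2 and FF 4 were the lowest. Its log2 difference was 1.69 ± 0.67 (SE; limma adjusted p = 0.715) and 0.62 without FF 2 and FF 4. Mrps30, also known as programmed cell death protein Pdcd9, had 8.22, 1.20, 7.17 and 4.47 FPKM in FFC 1 to FFC 4, against 0.289, 0.323, 0.280 and 2.22 FPKM in FF 1 to FF 4. FF 4 was the only FF library above any FFC library. The log2 difference was 1.75 ± 0.81 (SE; limma adjusted p = 0.759), and 2.10 without FF 2 and FF 4.

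In the other direction, Mrpl28 and Mrpl21, homologs of bacterial L28 and L21, had the next smallest p. Mrpl28 had 4.00, 9.84, 2.42 and 26.0 FPKM in FFC 1 to FFC 4, against 104, 33.8, 24.2 and 6.49 FPKM in FF 1 to FF 4. FF 4 was the low FF library here and FFC 4 the high FFC library. Mrpl21 had 0.595, 3.28, 7.45 and 32.3 FPKM in FFC 1 to FFC 4, against 31.8, 9.62, 11.9 and 63.7 FPKM in FF 1 to FF 4, with FFC 4 inside the FF range. The log2 differences were -1.78 ± 0.93 and -1.81 ± 0.98 (SE; limma adjusted p = 0.759 for both), and -2.62 and -1.64 without FF 2 and FF 4. Mrpl21 shares 117 bases of its span with Ighmbp2, an RNA and DNA helicase gene.

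**Figure D4:**
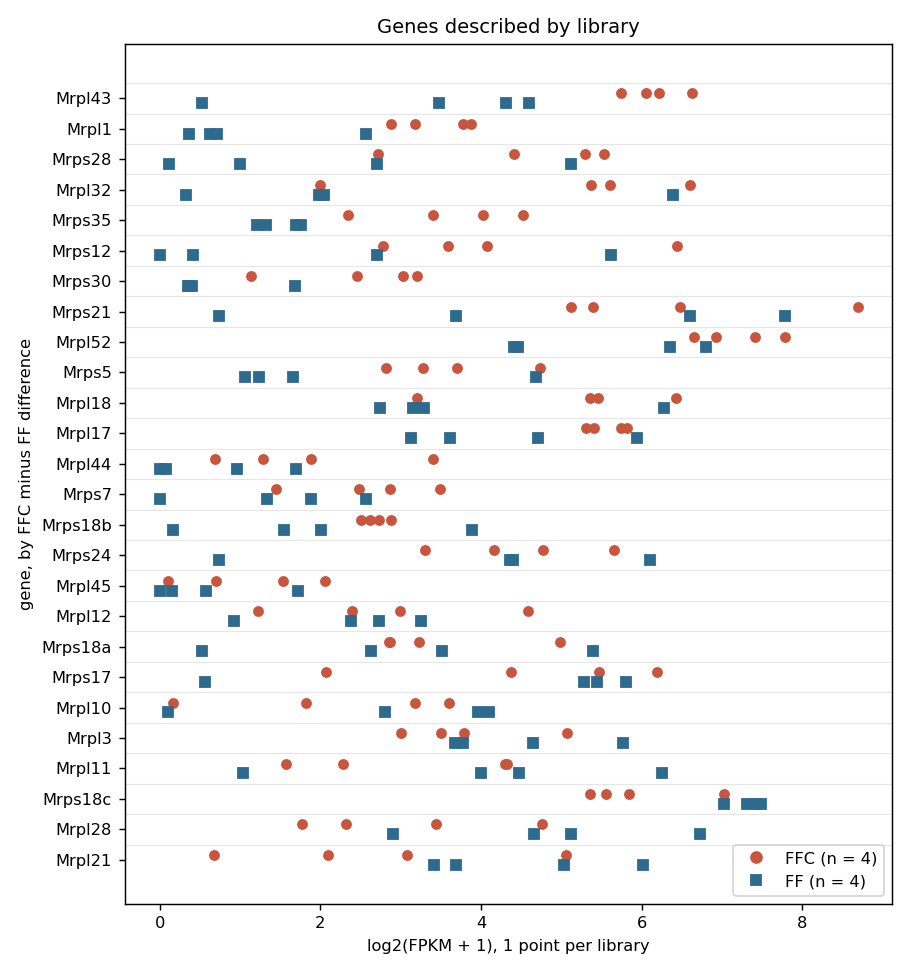
Level of the 26 genes described by library, as log2(FPKM + 1) (horizontal axis), with FFC libraries as circles above FF libraries as squares in each row, ordered by the FFC minus FF difference. Only Mrpl43, Mrpl1 and Mrps35, with all circles to the right, and Mrps18c, with all circles to the left, show no overlap.

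Of the 5 genes at an unadjusted p under 0.05, 4 had a promoter in the reference table, and 3 of these held a motif of a factor known to drive nuclear genes for mitochondria. These 3 are shown for that reason, and Mrps35 was not searched. The motifs searched, on both strands and with overlaps allowed, were GCGCANGCG for NRF1, CCGGAAG for GABPA (the ETS factor also called NRF2) and AAGATGGCG for YY1. Sequences are those of RefSeq on GRCm38.p6, from 250 bases before to 50 after the annotated start, 5′ to 3′ in the direction of the gene, with matches in capitals. Mrpl43 lies at chr19:45006393-45006692 on the minus strand, Mrpl52 at chr14:54426659-54426958 on the plus strand and Mrps18c at chr5:100798509-100798808 on the plus strand.

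Mrpl43: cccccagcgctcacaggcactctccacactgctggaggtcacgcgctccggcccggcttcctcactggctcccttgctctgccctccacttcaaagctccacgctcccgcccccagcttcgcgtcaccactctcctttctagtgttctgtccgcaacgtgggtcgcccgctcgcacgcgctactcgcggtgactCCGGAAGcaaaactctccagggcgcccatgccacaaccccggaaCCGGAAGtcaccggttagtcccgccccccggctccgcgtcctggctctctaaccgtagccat
Mrpl52: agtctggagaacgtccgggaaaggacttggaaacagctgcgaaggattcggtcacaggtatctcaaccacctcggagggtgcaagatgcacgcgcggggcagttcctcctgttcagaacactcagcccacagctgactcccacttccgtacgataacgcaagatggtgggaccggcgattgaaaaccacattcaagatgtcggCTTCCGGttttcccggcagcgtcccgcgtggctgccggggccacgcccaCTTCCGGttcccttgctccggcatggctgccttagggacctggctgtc
Mrps18c: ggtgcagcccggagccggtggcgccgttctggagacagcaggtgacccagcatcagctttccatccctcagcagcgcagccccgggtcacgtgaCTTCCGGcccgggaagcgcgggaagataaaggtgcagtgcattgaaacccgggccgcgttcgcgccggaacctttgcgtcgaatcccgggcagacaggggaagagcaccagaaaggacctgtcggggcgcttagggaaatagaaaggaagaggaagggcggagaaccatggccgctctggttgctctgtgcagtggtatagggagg

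Each match in these 3 promoters was to the GABPA motif, 2 in Mrpl43, 2 in Mrpl52 and 1 in Mrps18c. The motif thus lay in promoters of genes with differences of either sign, none of which passed. Of the 76 genes 67 had a promoter in the reference table, with 73 promoters between them. The GABPA motif lay in 24 of the 73 (32.9%), against 8.86% of all 32851 promoters, the NRF1 motif in 15 (20.5%, against 6.25%) and the YY1 motif in 8 (11.0%, against 1.40%). At least 1 of the 3 was found in 40 (54.8%, against 14.8%), and at least 2 in 7 (9.59%, against 1.65%). The promoter of Mrpl1 held none of the 3.

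Among the most abundant large-subunit genes, Mrpl17, a homolog of bacterial L17, had 55.3, 41.5, 38.5 and 52.7 FPKM in FFC 1 to FFC 4, against 7.72, 60.3, 11.3 and 25.1 FPKM in FF 1 to FF 4. FFC was even (47.0 ± 8.26 FPKM, SD, n = 4), and FF 2 lay above all of it. Mrpl32, which must be cut by the m-AAA protease of the inner membrane before it can be built into the ribosome, had 2.98, 95.7, 47.6 and 40.1 FPKM in FFC 1 to FFC 4, against 0.254, 2.97, 82.8 and 3.12 FPKM in FF 1 to FF 4. FFC 1 was at the level of FF 2 and FF 4, and FF 3 at that of FFC. Mrpl18 had 85.2, 8.25, 42.9 and 40.0 FPKM in FFC 1 to FFC 4, against 76.8, 8.76, 5.70 and 7.88 FPKM in FF 1 to FF 4, with 645 bases of its span shared with the chaperonin gene Tcp1. Their log2 differences were 1.22 ± 0.71, 2.20 ± 1.27 and 1.25 ± 0.92 (SE; limma adjusted p = 0.759 for each). They were 2.20, 1.53 and 0.60 without FF 2 and FF 4.

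Among the most abundant small-subunit genes after Mrps18c, Mrps21, a homolog of bacterial S21, had 40.9, 88.2, 33.9 and 411 FPKM in FFC 1 to FFC 4, against 220, 0.670, 96.4 and 11.9 FPKM in FF 1 to FF 4. Its range over the 8 libraries was 7.95 log2 units, and its difference of 1.71 ± 1.31 (SE; limma adjusted p = 0.759) turned to -0.78 without FF 2 and FF 4. Mrps17 had 43.4, 3.19, 19.7 and 72.0 FPKM in FFC 1 to FFC 4, against 54.9, 42.4, 37.8 and 0.474 FPKM in FF 1 to FF 4. Mrps24, the homolog of bacterial S3, had 26.3, 8.91, 16.8 and 49.3 FPKM in FFC 1 to FFC 4, against 20.1, 67.8, 19.6 and 0.674 FPKM in FF 1 to FF 4. In both genes the other 3 FF libraries lay within or above the FFC range and FF 4 was low. The differences of Mrps17 and Mrps24 were 0.25 ± 1.19 and 0.57 ± 1.03 (SE; limma adjusted p = 0.964 and 0.887), and both turned negative without FF 4 (-0.98 and -0.48). With FF 2 also left out they were -1.02 and 0.09.

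Members were also followed by their place in the ribosome, whatever their values. In the stalk that recruits translation factors, Mrpl12, which in human cells also binds the mitochondrial RNA polymerase, had 6.96, 4.25, 1.34 and 23.1 FPKM in FFC 1 to FFC 4, against 8.53, 0.898, 5.62 and 4.201 FPKM in FF 1 to FF 4. Mrpl10, at the base of the stalk, had 8.03, 0.126, 2.52 and 11.2 FPKM in FFC 1 to FFC 4, against 16.1, 14.6, 5.97 and 0.0760 FPKM in FF 1 to FF 4. Mrpl11, beside it, had 3.88, 18.6, 1.97 and 19.0 FPKM in FFC 1 to FFC 4, against 75.4, 1.05, 21.1 and 14.9 FPKM in FF 1 to FF 4. These 3 stalk genes overlapped between the genotypes, with log2 differences of 0.48, -0.55 and -0.82 (limma adjusted p = 0.893, 0.897 and 0.834). They were -0.19, -1.26 and -2.24 without FF 2 and FF 4. That of Mrpl12 was -0.12 without FFC 4, that of Mrpl10 was 0.12 without FFC 2, and that of Mrpl11 was -0.05 without FF 1 and -1.79 without FF 2.

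At the catalytic and decoding centres, Mrpl3, near the site of peptide bond formation, had 10.4, 12.9, 7.03 and 32.7 FPKM in FFC 1 to FFC 4, against 11.8, 12.7, 24.0 and 53.4 FPKM in FF 1 to FF 4. Mrps12, at the decoding centre, had 5.86, 11.0, 15.8 and 86.0 FPKM in FFC 1 to FFC 4, against 5.52, 0, 47.9 and 0.337 FPKM in FF 1 to FF 4, where FF 2 is listed at 0. The 2 genes ran in opposite directions (log2 difference -0.62 and 2.04; limma adjusted p = 0.817 and 0.759), and both overlapped between the genotypes. The differences were -0.32 for Mrpl3 and 0.06 for Mrps12 without FF 2 and FF 4.

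Of other small-subunit proteins chosen by role, Mrps5 had 25.6, 6.04, 12.04 and 8.68 FPKM in FFC 1 to FFC 4, against 2.17, 1.37, 24.7 and 1.09 FPKM in FF 1 to FF 4. Mrps28 had 45.2, 5.60, 20.2 and 38.3 FPKM in FFC 1 to FFC 4, against 33.6, 5.54, 1.00 and 0.0885 FPKM in FF 1 to FF 4. Mrps7 had 6.28, 4.57, 1.73 and 10.3 FPKM in FFC 1 to FFC 4, against 1.53, 0, 2.68 and 4.95 FPKM in FF 1 to FF 4, and FF 2 is listed at 0. Each of the 3 had a higher mean in FFC (log2 differences of 1.47, 2.25 and 1.12; limma adjusted p = 0.759 for each), and each overlapped between the genotypes. For Mrps28, FF 1 lay within the FFC range and FF 2 just under FFC 2. The differences of Mrps5, Mrps28 and Mrps7 were 0.46, 1.43 and 0.96 without FF 2 and FF 4.

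Of large-subunit genes that in human cells are linked to heart muscle disease or to the inner membrane, Mrpl44 had 0.619, 9.56, 1.44 and 2.71 FPKM in FFC 1 to FFC 4, against 0.955, 0, 0.0588 and 2.26 FPKM in FF 1 to FF 4. Mrpl45, which holds the human ribosome at the membrane, had 0.0710, 0.621, 1.91 and 3.16 FPKM in FFC 1 to FFC 4, against 0, 2.29, 0.486 and 0.114 FPKM in FF 1 to FF 4. Both are listed at 0 in 1 FF library, and both overlapped between the genotypes (log2 differences 1.13 and 0.49; limma adjusted p = 0.759 and 0.864). Leaving out FF 2 and FF 4 gave 1.29 and 0.81.

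Of the 26 genes in the plot of genes described by library, 7 share part of their span with another gene of the table that has a mean of at least 1 FPKM (Mrpl18, Mrpl21, Mrpl43, Mrpl44, Mrps7, Mrps24 and Mrps28), and of all 76 genes 22 do. Mrpl46 and Mrps11, which share 413 bases, are both members, and Mrpl47, described with sex, shares 1572 bases with Actl6a and 158 with Ndufb5. Reads of Mrpl23 are uncertain for another reason, its pseudogene Mrpl23-ps1. Mrpl23 had 17.9, 35.4, 18.7 and 50.5 FPKM in FFC 1 to FFC 4 and 12.7, 57.6, 4.99 and 2.35 FPKM in FF 1 to FF 4. The pseudogene row had 15.9, 20.5, 15.8 and 40.2 FPKM in FFC 1 to FFC 4 and 25.9, 39.0, 6.88 and 0 FPKM in FF 1 to FF 4.

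Genes that build, feed and regulate the mitochondrial ribosome had 0 genes called in each list. Of 21 tested assembly factors 17 had a higher mean in FFC (median difference 0.66), of 13 translation factors 11 (0.69), of 18 mitochondrial tRNA synthetases 12 (0.80), of 13 genes of mitochondrial DNA maintenance and transcription 8 (0.59), and of 10 nuclear regulators 9 (0.60). Without FF 2 and FF 4 the medians were -0.06, 0.16, 0.51, 0.75 and 0.02 in the same order, against 0.07 for all tested genes, and 10, 9, 13, 9 and 5 genes were higher. Of the 6 tested subunits that carry other symbols 3 were higher. Among these, Ict1, a peptidyl-tRNA hydrolase built into the large subunit, had 36.7, 20.7, 19.6 and 128 FPKM in FFC 1 to FFC 4, against 7.63, 3.57, 0.0814 and 3.19 FPKM in FF 1 to FF 4. Its values did not overlap (log2 difference 3.40 ± 0.87, SE, limma adjusted p = 0.534, background for all FFC above 3.05%). Ict1 and the genes in the next paragraph are named for a small p within their lists. By the same rule, Ptcd3, another such subunit, and the translation factor Mrrf had lower means in FFC. Their log2 differences were -0.43 and -1.56 (limma adjusted p = 0.894 and 0.759).

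Rg9mtd1, a subunit of the mitochondrial RNase P that frees tRNAs from the transcript, had 25.5, 19.1, 20.3 and 9.45 FPKM in FFC 1 to FFC 4, against 1.77, 3.09, 2.65 and 0.212 FPKM in FF 1 to FF 4. Hsd17b10, its partner in that enzyme, had 48.1, 45.1, 57.7 and 47.4 FPKM in FFC 1 to FFC 4, against 0.0373, 5.66, 28.5 and 24.9 FPKM in FF 1 to FF 4. Neither overlapped between the genotypes (background for all FFC above 3.05%), and neither passed (log2 differences 2.80 and 2.56, limma adjusted p = 0.605 and 0.712). Mtg1, a GTPase that acts late in assembly of the large subunit, had 30.6, 1.69, 13.7 and 21.2 FPKM in FFC 1 to FFC 4, against 0.0781, 0.732, 1.94 and 0.139 FPKM in FF 1 to FF 4 (limma adjusted p = 0.651), where FFC 2 lay below FF 3.

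The order of the libraries resembled that of the other large translation and respiration groups. The median log2(FPKM + 1) of 76 cytosolic ribosomal protein genes was 9.18, 8.82, 8.76 and 10.1 in FFC 1 to FFC 4 and 9.92, 7.44, 8.97 and 7.89 in FF 1 to FF 4. That of 75 nuclear genes of the respiratory chain and ATP synthase was 5.49, 4.96, 5.02 and 6.10 in FFC and 5.28, 3.38, 5.20 and 3.96 in FF. That of the mitochondrial ribosomal proteins was 2.87, 3.02, 3.25 and 3.92 in FFC and 3.39, 1.71, 3.26 and 2.05 in FF. In each of the 3 groups FFC 4 was highest and FF 2 lowest, followed by FF 4. Of the tested genes 75 of 76 cytosolic ribosomal, 61 of 74 respiratory and 51 of 76 mitochondrial ribosomal genes had a higher mean in FFC. Without FF 2 and FF 4 these counts were 22, 48 and 44. Whether the groups differ from each other was not tested.

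**Figure D5:**
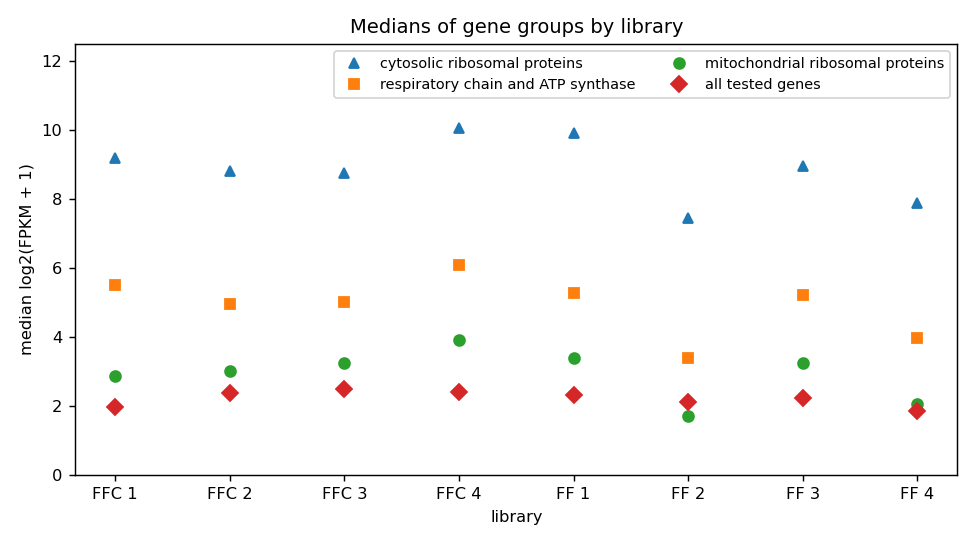
Median log2(FPKM + 1) (vertical axis) of the mitochondrial ribosomal proteins, 2 related groups and all 17753 tested genes in each library (horizontal axis). In FF 2 and FF 4 the 3 groups are at their lowest (1.71 and 2.05 for the mitochondrial ribosomal proteins). The median of all tested genes lies between 1.86 and 2.48. It is also lowest in FF 4 (1.86), and is 2.10 in FF 2.

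Sex, the other factor in the labels, did not separate the 76 genes by the test. With genotype in the model, 48 of 76 (63.2%; all tested genes 48.5%) had a higher mean in females and limma called 0 (background 0%; smallest adjusted p 0.953), with 2 at an unadjusted p under 0.05 (2.63%, background 3.99%). Mrpl32 and Mrpl47 were these 2, and both were lower in females. Mrpl47, the homolog of bacterial L29, had 2.20, 1.28, 0.831 and 2.38 FPKM in the females FFC 1, FFC 4, FF 1 and FF 4, against 12.04, 10.9, 13.6 and 2.95 FPKM in the males FFC 2, FFC 3, FF 2 and FF 3. Within females the median FFC minus FF difference of the 76 was 0.48 (all tested genes 0.08) and within males 0.57 (all tested genes 0.22). FF 4 is among the females and FF 2 among the males, and these medians include them. In both sexes 30 of the 76 were higher in FFC and 6 lower, while 20 were higher in females only and 20 in males only. These counts were not taken over all tested genes. Limma called no interaction of genotype and sex (background 0%, smallest adjusted p of a member 0.9995). At an unadjusted p under 0.05 there were 2 (2.63% against a background of 3.19%).

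The titles hold what reads as a date, with FF 1 to FF 3 and FFC 1 in November and FF 4 and FFC 2 to FFC 4 in December. Within November the median difference of the 76 was 0.04, with 39 of 76 higher in FFC (1 FFC against 3 FF libraries), and all tested genes had a median of -0.25. Within December it was 1.33, with 57 of 76 higher (3 FFC against 1 FF library, FF 4), and all tested genes had a median of 0.57. With month as a covariate the median was 0.54, with 55 of 76 higher and 0 called.

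Marker lists of other cell types were set side by side without a test. Only the erythroid and endothelial sums did not overlap between the genotypes. Erythroid markers summed to 34.4 to 64.2 FPKM in FFC and 65.9 to 243 FPKM in FF (1 of 6 tested markers higher in FFC), and endothelial markers to 4.59 to 18.8 FPKM in FFC and 20.2 to 45.1 FPKM in FF (1 of 6 higher). Astrocyte markers summed to 91.8 to 189 FPKM in FFC and 117 to 326 FPKM in FF (3 of 7 higher). Astrocyte markers were at 0 in at least 1 library for 7 of 11, Gfap and Aqp4 among them. Neutrophil markers ranged from 3.17 to 956 FPKM in FFC and from 193 to 2456 FPKM in FF (2 of 6 higher). Of the other lists, 1 of 5 tested mural and fibroblast markers was higher in FFC (median difference -1.21), 1 of 5 border macrophage (-0.64), 2 of 7 T cell (-0.49) and 1 of 4 B cell markers (-0.29). In the other direction, 4 of 4 tested oligodendrocyte markers were higher in FFC (0.49) and 10 of 12 microglia markers (0.48), beside 0.56 for the mitochondrial ribosomal proteins. Of neuron and oligodendrocyte precursor markers 1 each was tested (0.22 and -0.98). Their part in the differences of the mitochondrial ribosomal proteins was not tested.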

How the data were processed

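The authors deposited 1 table of FPKM values, with 37447 genes and a column for each of the 8 libraries. The submitters' processing notes name the build mm9 and the tools Cufflinks 2.0.2, Bowtie2 2.0.0, TopHat2 2.0.4 and CASAVA 1.8.2. Their roles, settings and annotation are not stated there. Per the labels' protocols, cDNA was made with the Ovation RNA-Seq method, an amplification method for small amounts of RNA. Low values showed no shared step between libraries, so read counts could not be recovered. Genes with a missing value (447) were left out. Starts are counted from 1.

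Analysis used log2(FPKM + 1), a scale that understates changes of low genes, and the 17753 genes whose mean reached 1 FPKM. Genotype, sex (with genotype as covariate) and their interaction were each fitted over those genes with limma 3.58.1 in R 4.3.3. Empirical Bayes used a trend, tests were two-sided and p-values were adjusted by Benjamini-Hochberg, with a threshold of 0.05. The fit was tested on simulated data. Lists are given by counts and medians only. Genes given by library were those of highest mean, of smallest p in each direction, without overlap, or picked by role. Members, lists and alternatives (pseudocount, filter, scaling, weights, covariates, replicate block, libraries left out) were chosen with earlier results of these data known. Python 3.11.15, pandas 2.3.3 and matplotlib 3.10.9 were also used.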

Additional observations from a re-analysis of the deposited data

Results flagged for a closer look

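On the log2(FPKM + 1) scale, 1 of the 4 libraries of a genotype stood far from the other 3 by Dixon's criterion in 5 of the 52 genotype groups of the 26 genes described, each time in FF. Over all 76 genes this held for 6 genes in FFC and 6 in FF (7.89% each), and over all tested genes for 15.1% in FFC and 15.8% in FF. Chance gives about 1 in 20 groups of normally distributed values, and the 26 genes were partly chosen by their values. In Mrpl18, FF 1 had 76.8 FPKM and the others 5.70 to 8.76. In Mrps17, FF 4 had 0.474 FPKM and the others 37.8 to 54.9. In Mrpl1, FF 3 had 4.93 FPKM and the others 0.294 to 0.634. In Mrps30, FF 4 had 2.22 FPKM and the others 0.280 to 0.323. In Mrps5, FF 3 had 24.7 FPKM and the others 1.09 to 2.17.

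In Mrps24 both FFC females were above both FF females and both FFC males below both FF males. The log2 difference between the genotypes was 2.64 in females and -1.50 in males, which differ by 4.14. The interaction term did not pass (limma adjusted p = 0.9995). The share of all tested genes with such a pattern was not counted.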

How the results depend on the processing

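No member was called under any of the alternatives run (limma, smallest adjusted p of a gene given by library 0.467, with the filter raised to a mean of 5 FPKM). Between the genotypes, 1 of all tested genes was called without FFC 4 and 1 without FF 1, and 0 in the other alternatives. Between females and males, 2 were called without FF 2, 3 without FF 4 and 4 without both, none of them members. The count of members whose FFC values all lie above all FF values was 3 to 7 when 1 library was left out (all tested genes 4.26% to 6.72%) and 8 without FF 2 and FF 4 (7.21%). Those all below numbered 1 to 3 when 1 library was left out (all tested genes 1.92% to 2.81%). The 3 were without FFC 4 (3.95%, all tested genes 1.93%). Without FF 2 and FF 4 there were 7 (9.21%, all tested genes 6.40%). With fewer libraries less is needed for no overlap. After upper-quartile, quantile or equal-sum scaling, 4 members lay all above (5.26%, all tested genes 2.53% to 2.71%). In each of these scalings 1 lay all below (1.32%, all tested genes 1.54% to 1.71%). Of 542 values of the 26 genes under the alternatives, 13 reversed, in 6 genes, and the cause was not tested. Mrps17 was -0.10 with array weights, -1.02 without FF 2 and FF 4, and between -0.98 and 1.07 when 1 library was left out, reversed at -0.06 without FFC 1, -0.30 without FFC 4 and -0.98 without FF 4. With 1 library left out, Mrps24 was -0.48 (without FF 4) to 1.30, Mrpl12 -0.12 (without FFC 4) to 1.00, Mrpl10 -1.43 to 0.12 (without FFC 2), and Mrps18a -0.36 (without FF 4) to 1.26, with -0.04 without FFC 4. Mrps21 was -0.78 and Mrpl12 -0.19 without FF 2 and FF 4. Mrpl10 was 0.66 with month as a covariate. Replicate numbers did not pair the libraries: deviations from the genotype means correlated between -0.05 and 0.03 for equal numbers. With the replicate block 0 members were called. At an unadjusted limma p under 0.05 there were 5 of the 76 members, beside 1014 of all 17753 tested genes. Sex could not be fitted with that block, since each number holds 1 sex. Depth is unknown, which limits what low values can show.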
